A study of Mus musculus with 11 samples.

Results

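Reactive astrocyte genes are genes known to rise in astrocytes after injury, ischemia or inflammation. Here 36 of them were examined in astrocytes of the unchallenged adult brain, and the list rests on what is known of reactive astrocytes, with no measured value in its rule. They comprise 13 pan-reactive genes, 11 neuroinflammation-type genes and 12 ischemia-type genes. All 36 were found among the 24421 genes listed for each sample. The samples were Aldh1l1-GFP positive astrocytes from C57BL/6 mice of both sexes aged 16 weeks, with no injury or treatment named in the labels, sorted by FACS from the olfactory bulb (OB, n = 3), hippocampus (HC, n = 3), cortex (CX, n = 2) and brainstem (BS, n = 3). All 11 samples carried the same BAC transgene, in which Aldh1l1 sequences drive eGFP, so that every cell with enough eGFP for the gate could enter. The labels do not say whether the replicates of a region came from different animals, and p-values therefore measure the spread between these samples, which may be technical.

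Astrocytes respond to damage by enlarging their intermediate filament skeleton and by switching on secreted protease inhibitors, cytokine receptors and genes of antigen presentation. Signals that can start this response include interleukin-6 family cytokines acting through STAT3, interferons, and inflammatory ligands acting through NF-kB. The class names stem from stimulated astrocytes, in which inflammatory and ischemic insults raise partly separate gene sets, and many of these genes are also used by vascular, immune or other glial cells.

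Gene counts summed to between 2830746 and 14151670 reads in a sample. A value is the read count of a gene divided by one size factor per sample, and a single read was worth between 0.367 and 2.10. Aldh1l1 itself, the astrocyte marker behind the reporter, had values between 542 and 1317 in the 11 samples. Markers of other cell types were also present, and the plot of their summed values shows where they differed. Olfactory ensheathing markers summed to between 14217 and 18840 in the OB and to between 459 and 1463 elsewhere. Most of this sum was Fabp7, with an OB mean of 14360, which was also present in every other region. Choroid plexus markers ranged from 222 in the OB to 247366 in the BS. In a sorted population, fewer cells of a type and less RNA per cell cannot be told apart.

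**Figure D1:**
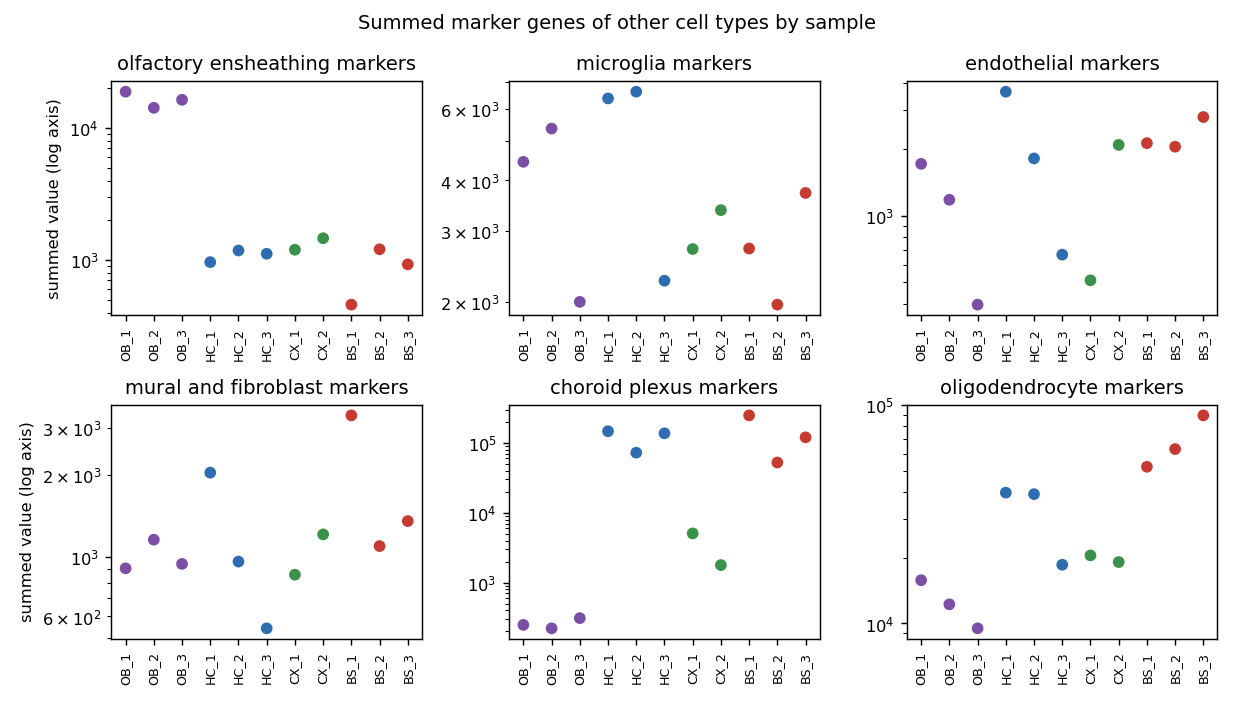
Summed normalised values (logarithmic y axis, scale differing between panels) of marker genes of 6 other cell types in each of the 11 samples, with OB in purple, HC in blue, CX in green and BS in red. The 3 OB samples lie above all others for olfactory ensheathing markers and below all others for choroid plexus markers, and HC_1 has the highest endothelial sum, 3637.

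Of the 36 members, 30 had enough reads to be tested, among 13875 genes in all. These were all 11 neuroinflammation-type members, 11 of 13 pan-reactive and 8 of 12 ischemia-type members. Per kilobase of exon, a scale on which genes can be compared, the highest mean level over the samples belonged to Gfap (606), followed by Vim (124), H2-D1 (118), Serpina3n (82.5) and S100a10 (36.4). The lowest belonged to Slc10a6 (0.0267). The order below Gfap differed between regions, since H2-D1 exceeded Vim per kilobase in the CX (89.4 against 67.8) and in the BS (143 against 60.4).

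**Figure D2:**
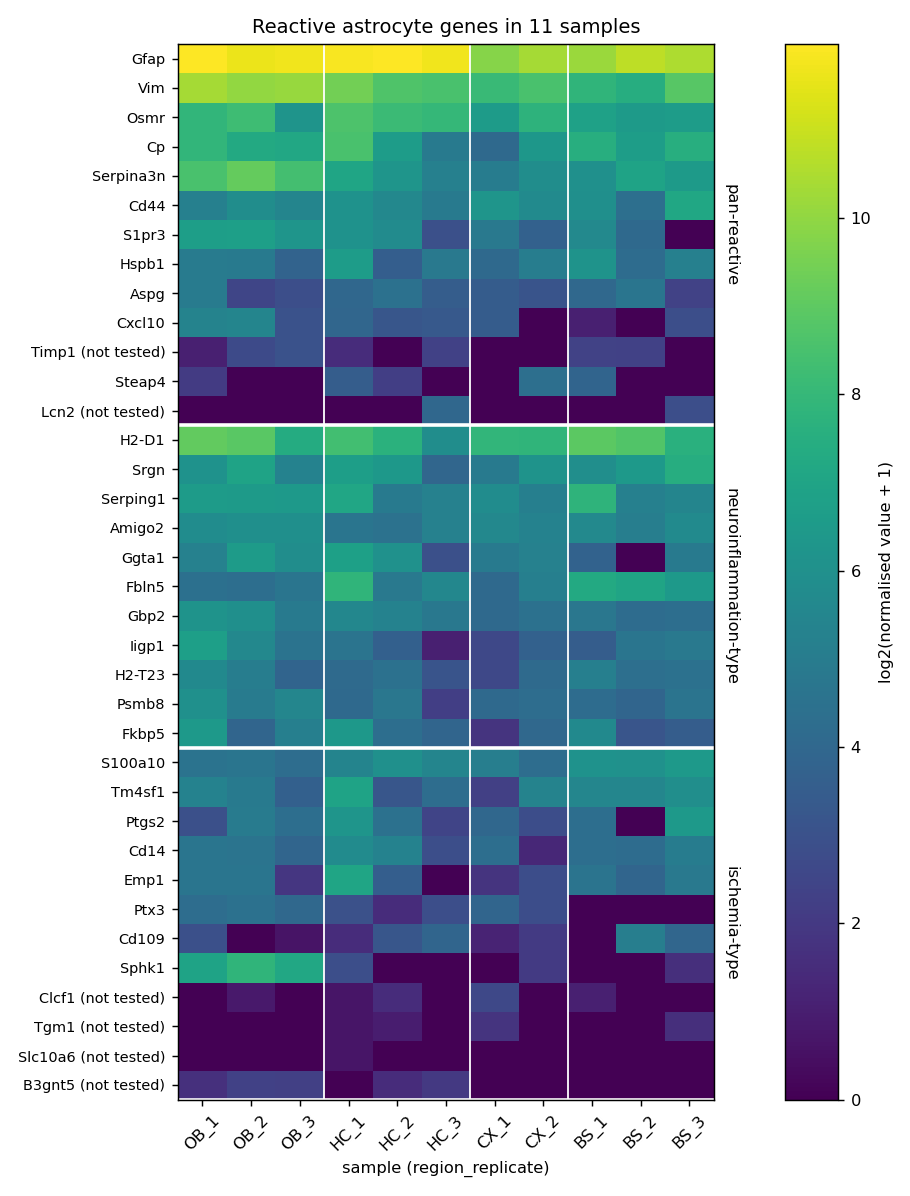
Heat map of log2(normalised value + 1) for the 36 members (y axis, grouped by class and ordered by median value) in the 11 samples (x axis). Gfap and Vim form the brightest bands, and the 6 members marked as not tested are at or near 0 in most samples.

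A difference among the 4 regions was found for 7 of the 30 members, 23.3%, with an adjusted p under 0.05 (limma, moderated F test), against 16.5% of all genes tested. No test compared these shares. The members were Gfap, Vim and Serpina3n of the pan-reactive class, Fbln5 of the neuroinflammation-type class, and Sphk1, Ptx3 and S100a10 of the ischemia-type class. The OB had the highest region mean in 15 of the 30 tested members, the HC and BS in 7 each, and the CX in 1. The CX had the lowest mean in 16. Such counts of highest and lowest region means were not made over all genes tested, so they have no background to be read against. The CX mean also rests on fewer samples than the means of the other regions.

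**Figure D3:**
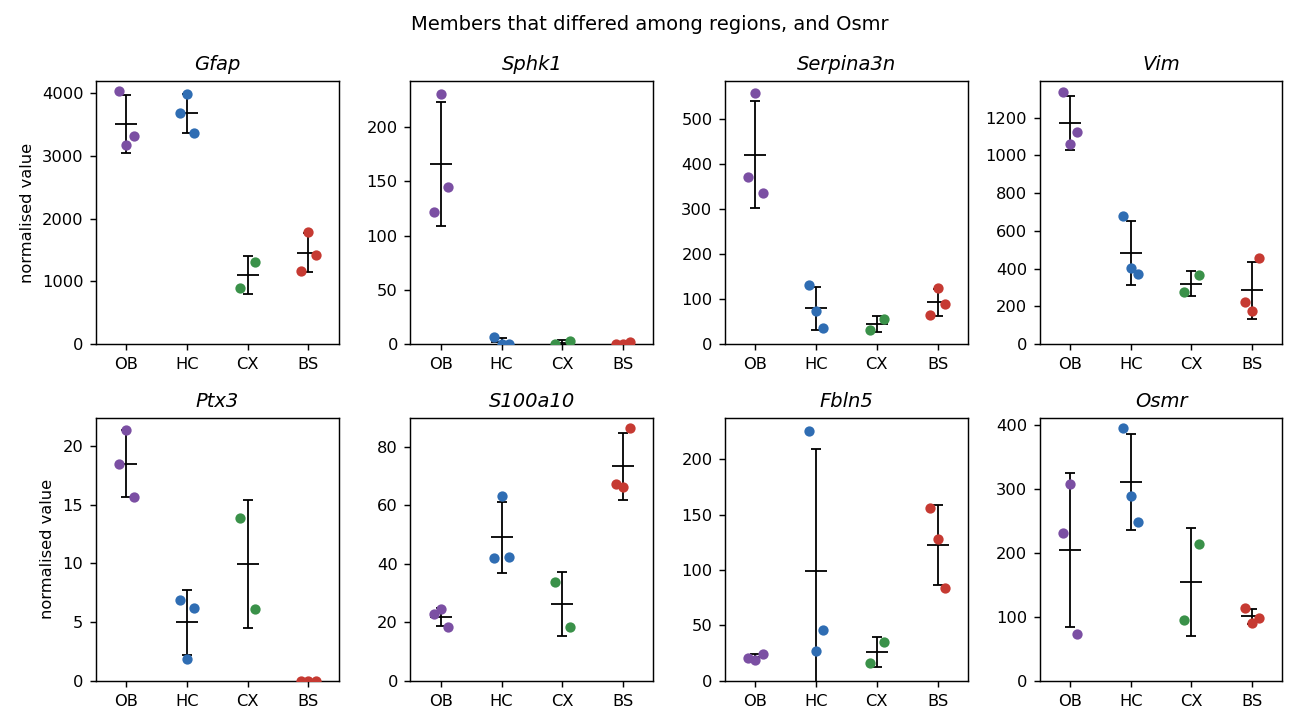
Normalised values (y axis, linear, from 0) of the 7 members that differed among the regions, and of Osmr, in each sample of the OB, HC, CX and BS, with the mean and SD in black (n = 3, and n = 2 for CX; bars are cut off at 0). Gfap is high in the OB and HC, Sphk1, Serpina3n and Vim are high in the OB, Ptx3 is at 0 in the 3 BS samples, and S100a10 is highest in the BS.

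Gfap, the glial fibrillary acidic protein of the astrocyte cytoskeleton (chr11:102887336-102900912, minus strand, GRCm38), divided the regions into a pair of high and a pair of low regions. Its values were 4028, 3168 and 3321 in the OB and 3672, 3976 and 3370 in the HC. They were 889 and 1309 in the CX and 1160, 1779 and 1427 in the BS. Every OB and HC sample lay above every CX and BS sample. The adjusted p over the regions was 4.22e-05 (limma). The CX was lower than the HC by a log2 difference of -1.76 ± 0.22 (SE; 3.39-fold, adjusted p = 0.000816) and lower than the OB by -1.69 ± 0.22 (3.23-fold, adjusted p = 0.000406). The BS was lower than the HC by -1.35 ± 0.20 (adjusted p = 0.000736). HC and OB differed by 0.07 ± 0.20 (adjusted p = 0.918), and BS and CX by 0.41 ± 0.22 (adjusted p = 0.285), neither beyond the spread between samples. Ribosomal RNA precursor (Rn45s) took between 18.0% and 25.6% of the reads in the 5 CX and BS samples and at most 2.93% in the 6 OB and HC samples, and its part in the Gfap result was not tested. Under all other settings tried, Gfap differed among the regions with an adjusted p of at most 0.000379.

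The window from 250 bases before to 50 bases after the single listed Gfap start site (RefSeq, GRCm38.p6, chr11:102897151-102897450, minus strand) is shown because STAT3 is a known driver of this gene. It was searched on both strands for the STAT motif TTCNNNGAA, and the match is in capitals:
Gfap: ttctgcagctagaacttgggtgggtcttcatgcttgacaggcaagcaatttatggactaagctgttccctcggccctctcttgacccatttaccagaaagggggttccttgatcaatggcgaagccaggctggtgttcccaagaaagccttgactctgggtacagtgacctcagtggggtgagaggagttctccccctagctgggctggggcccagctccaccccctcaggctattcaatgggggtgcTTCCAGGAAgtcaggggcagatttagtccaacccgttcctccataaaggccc
The match, TTCCAGGAA, starts at position -2 from the start site. The same motif was found in 8.30% of the 32851 promoter windows searched, so that a match of this kind is common. Among the members, 30 had a listed window and 6 of these held the motif (Emp1, Gfap, Psmb8, Sphk1, Steap4 and Tgm1). A gene can have several windows, and by window 7 of 39 member windows held it (17.9%). No test compared this share with that of all windows.

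The comparison of each region with the other 3 together used the thresholds of the study, which ask for an unadjusted p below 0.01, a change of more than 1.5-fold, and values above 5 in 2 or more replicates of a region. In the OB, 3 members were called higher, against 4.15% of all genes tested, and 0 lower, against 3.89%. Those called higher were Vim, Serpina3n and Sphk1. On the low side, Fbln5 and S100a10 had an unadjusted p under 0.05 (limma), edgeR called 0 and DESeq2 called these 2. The median log2 fold change of the 30 members in the OB was 0.69, against 0.02 over all genes, and 22 of 30 were positive.

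Vim (chr2:13573927-13582826, plus strand), which encodes the intermediate filament vimentin, had values of 1333, 1058 and 1123 in the OB. Elsewhere the values were 680, 403 and 369 in the HC, 276 and 366 in the 2 CX samples, and 224, 176 and 459 in the BS. All OB samples lay above the others. The log2 fold change in the OB was 1.77 ± 0.32 (SE; adjusted p = 0.00478, limma). Vim was lower in the HC than in the OB, by -1.32 ± 0.31 (adjusted p = 0.0138), whereas the HC, CX and BS did not differ pairwise beyond their spread (adjusted p between 0.176 and 0.693).

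Serpina3n (chr12:104406729-104414329, plus strand), a secreted serine protease inhibitor, had values of 371, 559 and 336 in the OB. The values were 131, 74.0 and 35.6 in the HC, 31.4 and 56.7 in the 2 CX samples, and 64.1, 124 and 90.5 in the BS. The lowest OB sample was again above the highest sample of any other region. The log2 fold change in the OB was 2.58 ± 0.41 (SE; adjusted p = 0.00215, limma), with a region mean 5.55 times the mean of the other samples. Serpina3n belongs to a cluster of similar genes, between which the counting could divide reads.

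Sphk1 (chr11:116530925-116536674, plus strand) encodes a kinase that makes the lipid mediator sphingosine-1-phosphate, and it showed the greatest contrast of the 30 members tested. Its values were 122, 231 and 145 in the OB, from 673 reads. The other 8 samples held 13 reads together, with values of 6.25, 0 and 0 in the HC, 0 and 3.07 in the 2 CX samples, and 0, 0 and 2.10 in the BS. The groups were far apart, and the mean in the OB was 116 times that of the other samples. The log2 fold change was 6.51 ± 0.76 (SE; adjusted p = 0.000272, limma). Its size depends on the value of 1 added before taking logs, and it lay between 4.64 and 7.86 over the settings tried. An antisense gene model, Gm29292, overlaps Sphk1 exons, and the strand setting of the counting is not given in the sources used here. Exons of S1pr3, Cxcl10, Cp, Gbp2, Psmb8 and Amigo2 likewise overlap those of another gene model. S1pr3, a receptor for sphingosine-1-phosphate and a pan-reactive member, had values of 105, 107 and 76.0 in the OB against 0 to 66.8 in the other samples. Its groups did not overlap either, but the OB comparison had an adjusted p of 0.214 (limma), with a log2 fold change of 2.45 ± 1.01.

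In the same OB samples, 7 of 8 olfactory ensheathing markers were called higher. Fabp7 reached 12292 to 16510 in the OB against 381 to 1282 elsewhere, Frzb 642 to 767 against 0 to 27.4, and Npy 607 to 936 against 1.87 to 20.1. None of the 8 markers was at 0 in all OB samples, while Mybpc1 and Prss56 were at 0 in all HC samples. Of 9 neuron markers, 2 were also called higher in the OB and 0 lower. These were Gad1 and Gad2, with OB means of 378 and 361. Of 7 neuroblast and stem cell markers, 1 was called higher there and 0 lower. This was Dcx, with a mean of 349 in the OB and between 15.5 and 44.5 elsewhere. Between regions, the ensheathing markers moved with Vim, Serpina3n and Sphk1. Within the OB their sum was 18840, 14217 and 16354 in OB_1, OB_2 and OB_3. It was lowest in OB_2, where Vim was lowest too, but Serpina3n and Sphk1 were highest. The part of all these markers in the result was not tested.

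Promoter windows of the 3 genes called in the OB are shown because these genes moved together. Besides the STAT motif, the searches covered an interferon response motif (GAAANNGAA), an NFI half-site (TTGGCA) and an AP-1 motif (TGANTCA), on both strands, with matches in capitals. The windows are chr2:13574061-13574360 for Vim, chr12:104406458-104406757 for Serpina3n and chr11:116531587-116531886 for Sphk1, all on the plus strand of GRCm38.p6 (RefSeq):
Vim: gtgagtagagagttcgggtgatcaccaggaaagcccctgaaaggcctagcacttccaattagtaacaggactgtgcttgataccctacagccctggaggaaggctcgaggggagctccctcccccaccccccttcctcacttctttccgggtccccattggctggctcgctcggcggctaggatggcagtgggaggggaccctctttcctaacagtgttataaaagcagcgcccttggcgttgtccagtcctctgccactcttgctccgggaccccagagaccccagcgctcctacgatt
Serpina3n: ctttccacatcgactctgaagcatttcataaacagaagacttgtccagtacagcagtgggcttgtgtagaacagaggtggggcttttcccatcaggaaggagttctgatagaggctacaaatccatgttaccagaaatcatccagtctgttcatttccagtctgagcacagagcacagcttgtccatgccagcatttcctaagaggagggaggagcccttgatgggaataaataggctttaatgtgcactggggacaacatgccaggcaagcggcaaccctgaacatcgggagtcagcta
Sphk1: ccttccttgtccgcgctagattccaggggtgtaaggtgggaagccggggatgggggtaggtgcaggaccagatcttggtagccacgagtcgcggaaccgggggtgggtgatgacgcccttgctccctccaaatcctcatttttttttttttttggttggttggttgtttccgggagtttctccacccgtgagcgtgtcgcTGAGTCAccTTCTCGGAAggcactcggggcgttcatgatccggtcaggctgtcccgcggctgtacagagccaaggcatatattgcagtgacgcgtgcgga
The Vim and Serpina3n windows held no match to any of the 4 motifs. Sphk1 has 5 listed start sites, and the window shown is the first that held the STAT motif, TTCTCGGAA at position -41, next to an AP-1 match, TGAGTCA at position -50, with no overlap between them. The share of all windows with a match was 8.56% for the interferon response motif, 14.1% for the NFI half-site and 7.81% for AP-1. Of the 30 member genes with a window, 8, 8 and 6 held these motifs.

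The neuroinflammation-type members, some of which are interferon-inducible or serve antigen presentation, lay on the high side in the OB without a call by limma. Of these 11 members 10 had a positive log2 fold change there, with a median of 0.81, and Fbln5 alone was negative. Iigp1, an interferon-inducible GTPase, had values of 108, 47.4 and 22.6 in the OB against 1.10 to 27.4 elsewhere. Psmb8, a subunit of the immunoproteasome, had values of 64.1, 30.8 and 44.2 against 3.67 to 25.6. The OB samples of Psmb8 were all above the rest, yet the adjusted p was 0.133 (limma, log2 fold change 1.48 ± 0.51), and for Iigp1, whose groups overlapped, it was 0.159. Both were called higher in the OB with edgeR, with DESeq2 and with TMM scaling. The adhesion molecule Amigo2 also lay above all other samples in the OB, at 56.5 to 61.4 against 21.9 to 52.6, with an adjusted p of 0.298. Gbp2, another interferon-inducible GTPase, had a mean of 53.3 ± 20.96 (SD, n = 3) in the OB and between 18.9 and 37.2 in the other regions. The class I histocompatibility genes H2-D1 and H2-T23 had log2 fold changes of 0.61 and 0.81, with OB means of 400 ± 208 (SD, n = 3) and 32.2 ± 18.3 (SD, n = 3). Iigp1, Gbp2 and both H2 genes belong to families of near-identical copies, so that their reads are less certain.

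Among the OB samples, OB_3 was the lowest for several of these genes. It had an H2-D1 value of 163 against 551 and 486 in the other OB samples, a Cxcl10 value of 7.003 against 40.2 and 42.6, and an Osmr value of 72.7 against 231 and 309. Cxcl10 is an interferon-inducible chemokine, and Osmr is the receptor of oncostatin M. In the same sample the microglial markers summed to 2000.6, against 4449 and 5379, and the endothelial markers to 396, against 1716 and 1180. Their part in these values was not tested.

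Genes of the interferon pathway outside the member list were 18 in number, and all were tested. Of these 3 differed among the regions, 16.7% against 16.5% of all genes. In the OB, 4 were called higher, against 4.15% of all genes, with a median log2 fold change of 0.47. Ifit1, an interferon-induced RNA-binding protein, lay between 99.7 and 329 in the OB against 6.28 to 96.2 elsewhere (adjusted p over the regions 0.0121, limma). Ifit3 lay between 162 and 393 against 41.0 to 144 (adjusted p = 0.018). Ifi27 was highest in the BS, at 371 to 786, and lowest in the CX, at 153 to 163 (adjusted p = 0.0479).

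**Figure D4:**
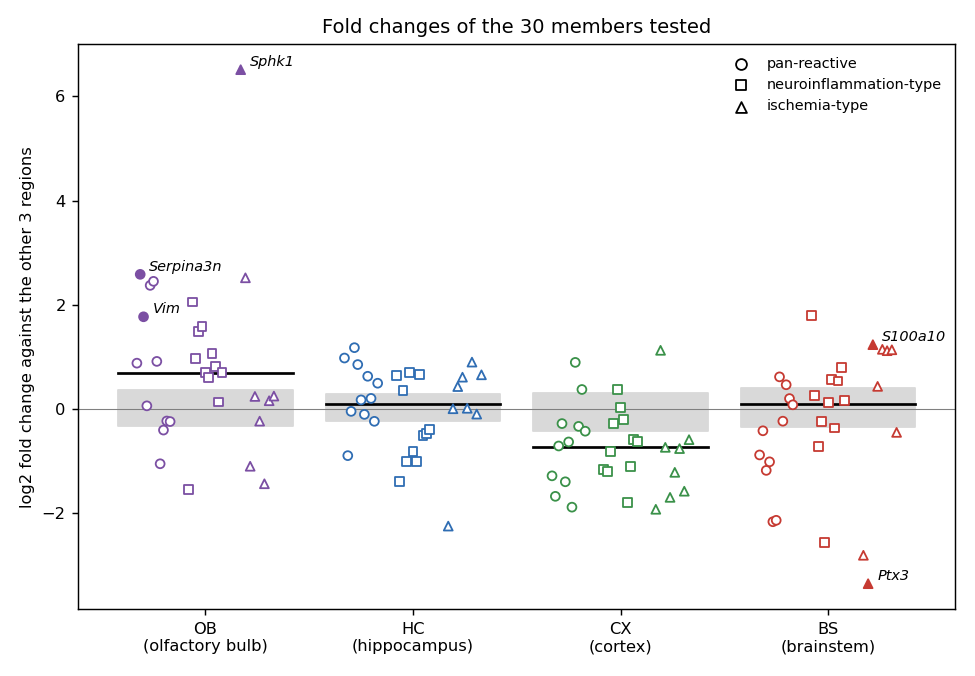
Log2 fold change (y axis) of each of the 30 tested members in the OB, HC, CX and BS against the samples of the other 3 regions, by class (circle, square, triangle), with filled symbols for members called by the study thresholds. The black line is the members' median and the grey band holds the middle 50% of all 13875 genes, and the members' median is 0.69 in the OB and -0.73 in the CX.

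In the BS, 1 member was called higher, against 3.98% of all genes, and 1 lower, against 5.05%. The median log2 fold change of the 30 members was 0.10, against 0.02 over all genes, and 16 of 30 were positive. Ptx3 (chr3:66219910-66225805, plus strand), a secreted pentraxin of innate immunity, had no read in any BS sample. Its values were 18.5, 21.3 and 15.6 in the OB, 6.87, 1.83 and 6.24 in HC samples, and 13.8 and 6.13 in CX samples. The BS samples were below all others, and the OB samples above all others. Against the limit set by 3 reads over the BS group, Ptx3 was at least 7.24-fold lower in the BS than in the other samples (adjusted p = 0.0135, limma). The member was scarce everywhere, with 118 reads in all, and only the order of OB above BS (adjusted p = 0.00132) and CX above BS (adjusted p = 0.0195) went beyond the spread between samples.

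The Ptx3 window (RefSeq, GRCm38.p6, chr3:66219637-66219936, plus strand) held 1 match, to the NFI half-site on the reverse strand at position -232, and is shown as the promoter of the gene absent from the BS reads:
Ptx3: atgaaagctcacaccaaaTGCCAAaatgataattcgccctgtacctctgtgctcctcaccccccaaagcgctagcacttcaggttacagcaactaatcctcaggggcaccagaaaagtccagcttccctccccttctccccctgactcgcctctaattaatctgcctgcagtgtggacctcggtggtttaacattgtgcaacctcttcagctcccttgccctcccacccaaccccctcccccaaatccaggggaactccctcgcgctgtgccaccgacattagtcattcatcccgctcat

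S100a10 (chr3:93555080-93564643, plus strand), an annexin partner at the plasma membrane, was the member called higher in the BS. Its values were 67.3, 66.1 and 86.3 in the BS. They were 22.8, 24.5 and 18.3 in the OB, 41.9, 63.02 and 42.2 in the HC, and 33.9 and 18.4 in the CX. All BS samples lay above the rest, although the highest HC sample came close. The log2 fold change was 1.23 ± 0.40 (SE), with an unadjusted p of 0.00787 and an adjusted p of 0.0884 (limma). The adjusted p over the 4 regions was 0.0266, and it rose to between 0.0576 and 0.0883 without OB_1, OB_3, BS_1 or BS_3. With BS_1 and HC_1 both left out it was 0.0718. The call in the BS was lost in that setting, with edgeR, with the replicate block, with an adjusted p under 0.05, and without any 1 of 8 of the 11 samples (each OB, CX and BS sample). Oligodendrocyte markers moved with S100a10, with sums of 52260 to 89909 in the BS, 18589 to 39771 in the HC, 19120 to 20516 for both CX samples and 9501 to 15788 in the OB. Choroid plexus markers summed to 52396 to 247366 in the BS and 72353 to 146799 in the HC, against at most 5061 in CX and OB samples, and Folr1 and Slc4a5 among them were at 0 in all OB samples. The part of these markers in the result was not tested.

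Fbln5 (chr12:101746565-101819055, minus strand), which encodes the elastic fibre protein fibulin-5, was high in the BS and in a single HC sample. Its values were 156, 128 and 84.2 in the BS and 225, 27.4 and 45.5 in the HC. They were 20.6, 18.9 and 24.2 in OB samples and 16.3 and 35.3 in CX samples. The BS samples lay above all samples but HC_1. The BS exceeded the OB by a log2 difference of 2.44 ± 0.61 (SE; adjusted p = 0.0138, limma) and the CX by 2.26 ± 0.69 (adjusted p = 0.0471). The adjusted p over the regions was 0.0316, and without any 1 of the OB samples, any 1 of the BS samples or CX_1 it lay between 0.0561 and 0.0931. Mural and fibroblast markers were highest in BS_1 and HC_1. Their sum was 3334 in BS_1 and 2046 in HC_1, and between 542 and 1353 in the other samples. It was 1353 in BS_3 and 1094 in BS_2, where Fbln5 was also high, against 1208 in CX_2 and 1155 in OB_2. None of the 10 markers was at 0 throughout a region. With BS_1 and HC_1 both left out, Fbln5 still differed among the regions, and it was then called higher in the BS.

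In the HC, 0 members were called higher or lower by limma, against 0.281% and 1.00% of all genes. At an unadjusted p under 0.05 there were 3 members (Gfap, Osmr and Amigo2), against 5.69% of all genes, and edgeR called 0 and DESeq2 called 1, Amigo2. Osmr had values of 395, 290 and 248 in the HC, 231, 309 and 72.7 in the OB, 95.5 and 215 in the 2 CX samples, and 114, 90.2 and 98.9 in the BS. The HC samples overlapped with 1 OB sample only, and every HC sample exceeded every CX and BS sample. Osmr was lower in the BS than in the HC by a log2 difference of -1.59 ± 0.43 (SE; adjusted p = 0.049, limma), whereas its adjusted p over the 4 regions was 0.0834.

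Members varied widely between the 3 HC samples. The highest HC sample exceeded the lowest by a median factor of 5.73 over the 27 tested members with a read in each, against 1.64 over all genes tested. Computed in the same way, the members' factor was 2.21 for the OB, 2.16 for the CX (n = 2) and 1.89 for the BS. Over all genes tested it was 1.53, 1.28 and 1.77 in these regions. A member with a 0 in a region was left out there, such as Ptgs2 in the BS (0 to 84.2). HC_1 was the highest HC sample for 23 of 30 tested members, against 36.01% of all genes, and HC_3 was the lowest for 20 of 30, against 34.3% of all genes. Emp1, a membrane protein of the ischemia-type class, had values of 132, 10.96 and 0 in HC_1, HC_2 and HC_3. Tm4sf1, another membrane protein, had values of 122, 8.22 and 18.3. Ceruloplasmin (Cp), a ferroxidase, was at 371, 98.6 and 29.7 in the same samples, and Ptgs2, the inducible cyclooxygenase, at 74.96, 21.01 and 4.40. Gfap did not share this spread, with a factor of 1.18 between its highest and lowest HC samples. Endothelial markers summed to 3637, 1815 and 666 in HC_1, HC_2 and HC_3, mural and fibroblast markers to 2046, 958 and 542, and microglial markers to 6390, 6640 and 2258. The list of TGF-beta and immediate early genes summed to 5540, 2210 and 780 in the same samples, with Fos, an immediate early transcription factor, between 44.0 and 1191. Their part in the spread was not tested.

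In the CX, 0 members were called higher or lower by limma, against 1.02% and 1.74% of all genes. At an unadjusted p under 0.05 there were 3 members (Gfap, Cp and Cd14), against 9.89% of all genes, and edgeR called 0 and DESeq2 called 3 (Gfap, Cp and Serpina3n). The median log2 fold change was -0.73, against -0.03 over all genes, and 25 of 30 members were negative, among them 9 of 11 pan-reactive, 9 of 11 neuroinflammation-type and 7 of 8 ischemia-type members. Cp was at 16.3 and 81.3 in the CX, against means of 155 to 178 in the other regions. Fkbp5, a co-chaperone induced by glucocorticoids, was at 2.51 and 15.3 in the CX. Its means were 44.8 ± 36.9 for the OB and 38.3 ± 37.8 for the HC (SD, n = 3). The BS samples were at 50.5, 8.01 and 10.5. Each of these regions overlapped with the CX, since OB_2 was at 14.2 and HC_3 at 13.9. The sum of astrocyte markers went the other way, at 557938 and 633069 in the CX against 95158 to 460966 elsewhere. Most of it came from Slc1a2, with a CX mean of 507178 (adjusted p over the regions 0.165, limma). All 8 astrocyte markers had a positive log2 fold change in the CX, but 0 were called there, and Aqp4 was at 0.03. All 10 endothelial markers had a negative log2 fold change in the CX, as had 10 of 12 microglial markers. In the OB, 9 of 10 endothelial markers were negative too, with a median of -0.62 against -0.51 in the CX. Of the microglial markers, 9 of 12 were positive in the OB. Among the regions, 0 endothelial markers and 1 microglial marker differed. The part of these markers in the low values was not tested.

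The remaining tested members did not pass the test. Cd44, the hyaluronan receptor, had its lowest mean in the OB, 45.8 ± 11.5 (SD, n = 3), and its highest in the BS, 74.0 ± 61.5 (SD, n = 3). Means of the small heat shock protein Hspb1 lay between 24.2 and 44.9. Serping1, a complement inhibitor, had region means from 45.9 in the CX to 98.9 ± 104 in the BS (SD, n = 3), where BS_1 alone had a value of 219. Region means of Srgn, a proteoglycan of secretory granules, ranged from 49.7 to 106, and those of Cd14, a co-receptor for lipopolysaccharide, from 10.2 to 33.3. Ggta1, a galactosyltransferase, had means of 63.4 in the OB and 60.9 in the HC and of 14.0 in the BS. Region means of Aspg, an asparaginase, lay between 8.86 and 15.5, with single samples from 4.21 to 30.4. Cd109 and the metalloreductase Steap4 were scarce, with 84 and 50 reads in all. None of these 9 members passed the test over the regions, with adjusted p-values from 0.222 to 0.917 (limma).

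The 6 members that were not tested had few reads. Lcn2, a siderophore-binding protein that rises steeply in reactive astrocytes, had 44 reads in all. Of these 41 were in HC_3, a value of 15.0, and 3 in BS_3, with none in the other 9 samples. Timp1, an inhibitor of metalloproteinases, had 41 reads over 7 samples and a highest value of 7.003. B3gnt5, a glycosyltransferase, had 24 reads, all in the OB and HC. Clcf1 had 9 reads, Tgm1 5 and Slc10a6 1. At this depth 3 reads corresponded to values between 1.10 and 6.31, and lower levels were not detectable in single samples.

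Further pathway genes were examined in lists outside the members. Of 12 genes of cytokine receptors and JAK-STAT3 signalling, 2 differed among the regions, 16.7% against 16.5% of all genes. Cntfr, the receptor for ciliary neurotrophic factor, was higher in the CX, at 2306 and 2601, and lay between 681 and 2332 elsewhere (adjusted p = 0.018, limma), and the phosphatase gene Ptpn11 was highest in the BS, at 1150 to 1511 (adjusted p = 0.0287). Of 13 genes of NF-kB and inflammatory receptors, 1 differed, a share of 7.69%. This was Tlr4, the lipopolysaccharide receptor, at 219 to 330 in the OB and 17.9 to 55.2 elsewhere (adjusted p = 5.96e-05), which was called higher in the OB. Of 9 inducers released by microglia and other cells, 6 were tested and 1 differed, a share of 16.7%. Lif, a cytokine of the interleukin-6 family, was at 0.789 to 4.31 in the OB, below the HC (18.7 to 44.0) and the CX (19.9 to 50.3) (adjusted p = 0.0155). Of 10 genes of TGF-beta and immediate early responses, 0 differed among the regions by limma, edgeR or DESeq2, and 1 had an unadjusted p under 0.05 (limma).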

How the data were processed

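RNA of sorted Aldh1l1-GFP positive astrocytes (3 OB, 3 HC, 2 CX and 3 BS samples) was sequenced from rRNA-depleted total RNA libraries. Per the study's methods and the submitters' processing notes, the authors mapped reads with STAR 2.5.0a to mm10, counted them on UCSC transcripts and normalized them with DESeq2 1.20.0. The deposited values are thus a normalized signal per gene, which the study calls RPM although the sums of the samples are unequal. They were whole multiples of 1 step per sample in 100% of the non-zero entries (tolerance 0.01 reads), so that reads were recovered for the filter and for the alternatives. Such values carry counting error as well as any error of sorting and amplification, and floors of 3 reads cover counting error only.

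Genes were filtered with filterByExpr of edgeR 4.0.16 (R 4.3.3). Log2 values, after adding 1, were fitted with limma 3.58.1, using its intensity-dependent prior, and tests were two-sided. Fold changes on this scale understate the change of low genes. A moderated F test compared the 4 regions, and each region was compared with the samples of the other 3, with adjusted p-values (Benjamini-Hochberg) over all 13875 genes. Alternatives were edgeR, DESeq2 1.42.0, TMM scaling, a pseudocount of 0.25, no filter, other thresholds, 1 mean per region, a replicate block and leaving out samples. The script was tested on simulated data. Members, pathway lists and markers were chosen with earlier results of these data known. Members that differed or were called are given by sample, the others by range or mean, and pathway genes only where they differed, at most 3 per list. Other genes and samples printed by value were chosen after their values were seen. Gene positions are from GENCODE M21 (GRCm38), and promoter windows from RefSeq (GRCm38.p6).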

Additional observations from a re-analysis of the deposited data

How the results depend on the processing

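Gfap, Vim, Serpina3n, Ptx3 and Sphk1 differed among the regions under every alternative run, and the count of differing members, 7, lay between 6 and 10 in the other fits and between 5 and 8 when samples were left out in turn. Fbln5 and S100a10 were lost in some of these. The 3 calls in the OB became 5 with edgeR, 7 with DESeq2, 7 with TMM scaling and 5 with 1 mean per region, and Vim, Serpina3n and Sphk1 were kept in each. The 0 calls in the HC became 1 with DESeq2 (Amigo2), and 2 with 1 mean per region (Gfap and Osmr). The 0 calls in the CX became 3 with DESeq2 (Gfap, Cp and Serpina3n) and 2 with 1 mean per region (Gfap and Serpina3n). The 2 calls in the BS became 1 with edgeR, 5 with DESeq2, 6 with 1 mean per region and 1 with the adjusted p. S100a10 was lost with edgeR and with the adjusted p. With BS_1 and HC_1 both left out, an alternative chosen after seeing the data, there were 5 calls in the OB and 1 in the CX (Gfap). The cause of these shifts was not tested. For calls under any setting other than the main fit, throughout this report, the share of all genes called is not given. Those counts therefore have no background to be read against.

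When samples were left out in turn, calls ranged from 3 to 5 in the OB (5 without CX_1), from 0 to 2 in the HC (2 without OB_1, and 1 without OB_2, HC_3 or CX_2), from 0 to 1 in the CX (1 without HC_3, either CX sample, BS_1 or BS_3) and from 1 to 3 in the BS (1 without OB_1, OB_2, BS_1 or BS_2). With 1 CX sample left, that sample was assumed to vary like the others. With the replicate block, 10 members differed among the regions, with 4 calls in the OB, 1 in the HC (Osmr), 0 in the CX and 1 in the BS (Ptx3). Whether the replicate numbers pair the samples is not known, since the labels do not say and so few samples per region cannot settle it. Deviations of same-numbered samples correlated at -0.16 to 0.25 over 15 pairs, with 3 over 0.1. None of the log2 fold changes of the members called in the OB and BS changed direction under the alternatives run. TMM scaling shifted the median of all genes by at most 0.03 in size and changed the sign of 1 or 2 members per region. Depth limits what can be said of the 6 untested members and of scarce tested ones such as Steap4, Cd109 and Ptx3.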
